A study of Mus musculus with 11 samples.

Results

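The 10 genes described here code for components of the desmosome and for related plakins, and they were chosen by name from the 21846 genes of the count table: the desmosomal cadherins Dsg2 and Dsc2, the armadillo proteins Jup, Pkp1, Pkp2 and Pkp3, the plakins Dsp, Ppl and Evpl, and the tetraspan protein Perp. All 10 were present in the table and all 10 passed the filter on low counts in every comparison. They were measured by RNA-sequencing in 11 libraries of MamBo cell lines, which all come from mammary carcinomas of virgin female FVBhuHER2 mice, a strain that carries a human HER2 transgene. MamBo89 (4 libraries) comes from a tumor whose cells keep HER2. MamBo43 (1 library) comes from a second tumor and can lose HER2. MamBo38 (4 libraries) is a HER2-negative line grown out of a tumor that MamBo43 cells formed in a mouse. MamBo43 TRT (2 libraries) is MamBo43 after trastuzumab in culture, when by the methods of the study HER2 had been lost. The paper also reports that a small share of HER2-positive cells persisted in the treated culture, with a few islets of polygonal cells. Trastuzumab, an antibody against HER2, was used at 30 µg/ml, either for 60 days or for 30 days followed by 30 days without it. MamBo89 and MamBo38 each contributed 2 untreated libraries and 1 library of each schedule, and MamBo43 TRT 1 library of each schedule. One of the untreated MamBo89 libraries was taken as a HER2-positive clone. The 5 HER2-positive libraries are therefore MamBo89 and MamBo43, and the 6 HER2-negative libraries are MamBo38 and MamBo43 TRT. Each HER2-positive line stands for 1 tumor, MamBo38 and MamBo43 TRT descend from the same line, and the naming code of 3 MamBo38 libraries differs from the one shared by the remaining 8 libraries, so that line, tumor and code cannot be fully told apart. The labels say nothing on the independence of the cultures, and p-values therefore measure the spread between these libraries, which may be technical.

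Desmosomes are spot-like junctions that fasten neighbouring epithelial cells to each other and anchor their keratin filaments. Desmogleins and desmocollins are the cadherins that bridge the gap between cells, plakoglobin (Jup) and the plakophilins (Pkp1, Pkp2 and Pkp3) bind the cadherin tails inside the cell, and desmoplakin (Dsp) ties that plaque to the keratins. In the mammary gland desmosomes join luminal cells to each other and to the myoepithelial layer. Periplakin (Ppl) and envoplakin (Evpl) are plakins best known from the cornified envelope of stratified epithelia, and Perp is a membrane protein of the desmosome whose gene is a target of p53 and p63.

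Total counts ranged from 17040454 to 27127662 per library, so that 3 counts corresponded to between 0.114 and 0.179 CPM (a gene's count after bringing all libraries to one size, here always with TMM scaling). The summed level of 7 luminal epithelial markers (Epcam, Krt8, Krt18, Cdh1, Cldn3, Cldn4 and Cldn7) was 2534 to 3927 CPM in MamBo89, 3615 CPM in MamBo43, 301 to 1843 CPM in MamBo43 TRT and 1.39 to 2.73 CPM in MamBo38, where 5 of the 7 markers stayed at or under 1 CPM in every library. The 6 mesenchymal markers summed to 234 to 2427 CPM in MamBo89, 809 CPM in MamBo43, 37067 to 43269 CPM in MamBo43 TRT and 19843 to 29028 CPM in MamBo38. Fn1 was the highest of the 6 in every group, with 34116 and 39853 CPM in MamBo43 TRT. Alone of the 6, Cdh2 was lower in MamBo43 TRT (8.04 and 13.6 CPM) than in MamBo43 (36.1 CPM). MamBo38 thus carries almost none of the transcripts that define the luminal epithelium, and MamBo43 TRT carries both sets. The sum of 6 myoepithelial markers was highest in MamBo43 TRT, at 114 CPM in the withdrawal library and 624 CPM in the 60-day library, against 8.43 to 37.8 CPM elsewhere. Acta2 led this sum in MamBo43 TRT (69.1 and 467 CPM), while Myh11 and Oxtr stayed at or under 1 CPM there. Of 6 immune markers only Cd68 exceeded 1 CPM (sums of 1.06 to 49.9 CPM), the 5 endothelial markers stayed under 1 CPM, and of 4 adipocyte markers only Fabp4 exceeded 1 CPM. What part these marker levels have in the results was not tested. In bulk RNA, fewer cells that express a gene and less RNA of it per cell cannot be told apart.

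**Figure D1:**
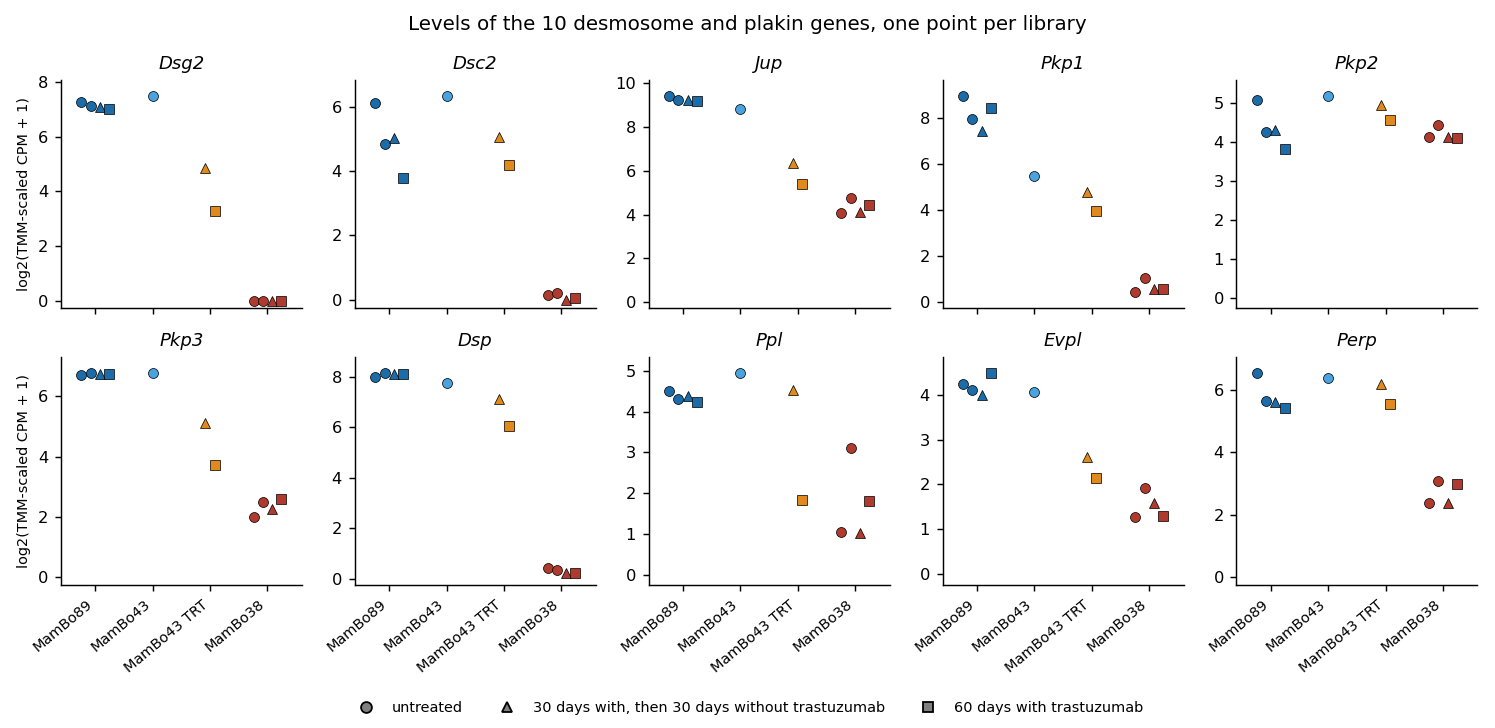
Levels of the 10 genes on the scale log2(TMM-scaled CPM + 1), in which a value of 0 is 0 CPM; each point is a library, colours and positions give the group, and shapes give the trastuzumab schedule. In 9 panels every MamBo38 point lies below every MamBo89 point, and Pkp2 is the panel in which these groups overlap.

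The comparison of the 6 HER2-negative with the 5 HER2-positive libraries asks which transcripts accompany the loss of HER2. All 10 genes had a negative log2 fold change there, with a median of -2.80 against -0.04 over the 12364 genes tested, and 6 of the 10 were called lower (Dsg2, Jup, Pkp1, Pkp3, Ppl and Evpl). A gene was called at an adjusted p under 0.1 in edgeR's quasi-likelihood test together with a log2 fold change of 1 or more in size, and 17.0% of all tested genes were called lower by the same rule. For 6 of the 10 genes every HER2-negative library lay below every HER2-positive one, as it did for 17.2% of the genes tested. Dsc2, Dsp and Perp fell short of the call (adjusted p = 0.188, 0.132 and 0.138). In these 3 genes the HER2-negative libraries lay far apart, each being higher in both MamBo43 TRT libraries than in any of the 4 MamBo38 libraries. Without the MamBo43 TRT withdrawal library all 3 were called lower (log2 fold change -3.61 for Dsc2, -4.27 for Dsp and -2.19 for Perp). With tumor of origin as a covariate, Pkp1 and Ppl were no longer called, and the log2 fold change went from -5.15 to -2.59 for Pkp1 and from -1.82 to -2.28 for Ppl. Each gene is therefore given by line, with positions from the GENCODE annotation on GRCm38.

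Dsg2 (ENSMUSG00000044393), the desmoglein of simple epithelia, was measured at 153, 140, 133 and 127 CPM in the 4 MamBo89 libraries and at 178 CPM in MamBo43. It fell to 28.3 CPM in the withdrawal library and 8.78 CPM in the 60-day library of MamBo43 TRT, and no count was found in any of the 4 MamBo38 libraries. The groups did not overlap, and MamBo38 alone had no transcript. Taking 3 counts over the 4 MamBo38 libraries as the limit that a count of 0 allows, Dsg2 was at least 3797-fold higher in MamBo89, at least 4855-fold higher in MamBo43 and at least 473-fold higher in MamBo43 TRT. The bound for MamBo43 TRT was 772-fold with the withdrawal library alone and 239.8-fold with the 60-day library alone. These bounds cover counting error only. The annotation places a transcript antisense to Dsg2 over 3.99% of its exon bases, and the standard TruSeq RNA kit does not mark strand, so that reads from the shared bases cannot be assigned to one of them.

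Dsc2 (ENSMUSG00000024331), a desmocollin of simple and stratified epithelia, reached 68.2 CPM in the AG3 library of MamBo89 (replicate 1, taken as the clone) and 27.7, 32.0 and 12.8 CPM in the other 3, with 79.8 CPM in MamBo43. MamBo43 TRT held 32.2 CPM after withdrawal and 17.4 CPM at 60 days, values that lie inside the range of MamBo89. MamBo38 gave 2, 3, 0 and 1 counts, or at most 0.167 CPM. Over summed counts, MamBo89 exceeded MamBo38 488.6-fold (2785 against 6 counts, 95% exact interval 224 to 1333, counting error only), and 763-fold without MamBo38 replicate 2, which holds 3 of the 6 counts.

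**Figure D2:**
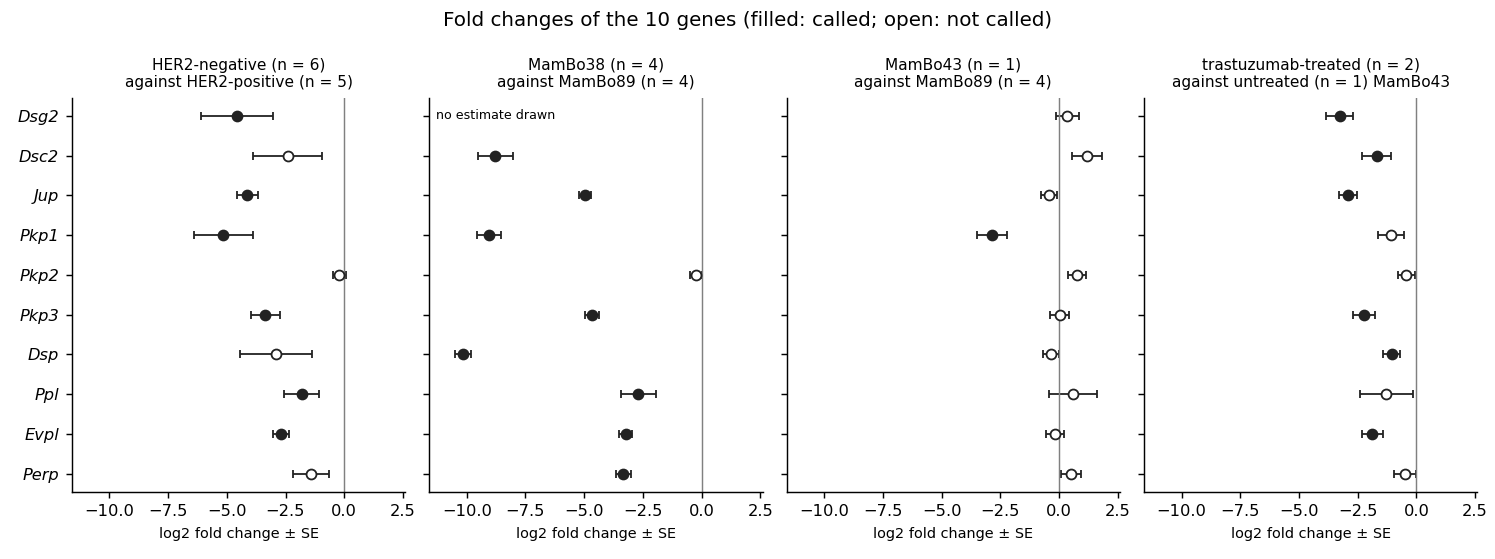
Log2 fold changes of the 10 genes with their standard errors in 4 comparisons that share libraries; filled points were called and open points were not. Dsg2 is left out of the second panel because MamBo38 has no count of it. MamBo38 lies furthest below MamBo89 in Dsp, Pkp1 and Dsc2, MamBo43 differs from MamBo89 by a call in Pkp1 alone, and in treated MamBo43 the points for Dsg2, Jup and Pkp3 lie furthest to the left.

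Jup (ENSMUSG00000001552) codes for plakoglobin, which binds both desmosomal and classical cadherins. It was measured at 670, 600, 588 and 580 CPM in MamBo89, at 452 CPM in MamBo43, at 80.1 and 41.0 CPM in MamBo43 TRT, and at 15.7, 26.0, 16.5 and 20.7 CPM in MamBo38. Every HER2-negative library lay far below every HER2-positive one, yet a low level of transcript remained in MamBo38, unlike Dsg2. The log2 fold change was -4.95 ± 0.25 (SE, adjusted p = 1.07e-07) for MamBo38 against MamBo89 and -4.12 ± 0.44 (adjusted p = 2.86e-05) for HER2-negative against HER2-positive libraries. Beta-catenin (Ctnnb1), another armadillo partner of cadherins, was chosen for comparison after its values were seen: it ranged from 572 to 909 CPM over the 11 libraries, and the ratio of Jup to Ctnnb1 per kilobase of exons was 0.770 to 0.796 in MamBo89 and 0.0156 to 0.0245 in MamBo38. Of the other listed catenins, Ctnnd1 was called lower in HER2-negative libraries (log2 fold change -1.21 ± 0.16, adjusted p = 9.95e-05) and Ctnna1 was not called (-0.39 ± 0.13).

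Pkp1 (ENSMUSG00000026413, chr1:135871395-135919207), the plakophilin of stratified epithelia, was the only one of the 10 genes called between the HER2-positive lines over all 11 libraries. MamBo89 held 493, 246, 171 and 340 CPM against 43.6 CPM in MamBo43, and MamBo43 was called lower (log2 fold change -2.84 ± 0.64, adjusted p = 0.0117), in a comparison where 7.86% of all genes were called lower. With 1 library of MamBo43, that test assumes that it would vary as much as the other groups. Treated MamBo43 held 26.8 and 14.5 CPM and MamBo38 only 0.336 to 1.06 CPM. The fold change of MamBo38 against MamBo89 was -9.06 ± 0.50 on the log2 scale (adjusted p = 1.73e-07).

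Without the AG3 library, MamBo43 was also called higher than MamBo89 in Dsc2 (log2 fold change 1.78) and Pkp2 (1.14), against 1.18 ± 0.64 (adjusted p = 0.225) and 0.77 ± 0.38 (adjusted p = 0.184) with it. The AG3 library had the highest value among the MamBo89 libraries for both genes. Pkp1 stayed called lower in MamBo43 in either case.

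Pkp2 (ENSMUSG00000041957, chr16:16213318-16272712), the plakophilin found in nearly all desmosome-bearing tissues, did not follow the other genes. It was measured at 32.6, 18.0, 18.6 and 12.9 CPM in MamBo89, 35.0 CPM in MamBo43, 29.7 and 22.6 CPM in MamBo43 TRT, and 16.3, 20.5, 16.2 and 16.2 CPM in MamBo38. The ranges of MamBo89 and MamBo38 overlapped, and their difference was not called (log2 fold change -0.25 ± 0.25, adjusted p = 0.411). Against MamBo43 alone, MamBo38 was called lower by a fold change that sits at the threshold (-1.02 ± 0.37, adjusted p = 0.0487), and the call was lost when MamBo38 replicate 1, 3 or 4 was left out (-0.99 in each case). Pkp3 (ENSMUSG00000054065, chr7:141078218-141090510), which occurs in the desmosomes of most simple and stratified epithelia, held nearly the same level in all 5 HER2-positive libraries, 103 to 108 CPM. It was measured at 33.6 and 12.2 CPM in MamBo43 TRT and at 2.98 to 5.01 CPM in MamBo38. Its log2 fold change was -4.68 ± 0.31 (adjusted p = 5.43e-07) for MamBo38 against MamBo89.

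Dsp (ENSMUSG00000054889), desmoplakin, the link between the plaque and keratin, was measured at 257, 284, 274 and 275 CPM in MamBo89 and at 214 CPM in MamBo43. MamBo43 TRT kept 141 CPM after withdrawal and 66.0 CPM at 60 days, and MamBo38 gave 7, 5, 3 and 4 counts, or 0.152 to 0.336 CPM. The groups did not overlap, and the gap lay between MamBo38 and all other libraries, the 2 of MamBo43 TRT included. Over summed counts, MamBo89 exceeded MamBo38 1175-fold (21200 against 19 counts, 95% exact interval 752 to 1951) and MamBo43 TRT exceeded it 426-fold (4598 against 19 counts, interval 273 to 709), at 607-fold for the withdrawal and 285-fold for the 60-day library. An antisense transcript of unknown status covers 5.17% of the exon bases of Dsp.

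Ppl (ENSMUSG00000039457, chr16:5086291-5132421) was measured at 17.7 to 21.9 CPM in MamBo89 and 29.9 CPM in MamBo43, and it split the treated MamBo43 libraries more than any other of the genes, with 22.2 CPM after withdrawal and 2.57 CPM at 60 days. The first of these lies in the HER2-positive range and the second in that of MamBo38, where the values were 1.06, 7.62, 1.01 and 2.51 CPM. The higher MamBo38 value belongs to replicate 2, the MamBo38 library that shares its name code with the other lines. MamBo38 was called lower than MamBo89 (log2 fold change -2.69 ± 0.73, adjusted p = 0.00806). With replicate 2 as the only MamBo38 library the call was lost (-1.36). Evpl (ENSMUSG00000034282, chr11:116220559-116238077), the partner of periplakin, was measured at 14.9 to 21.5 CPM in MamBo89, 15.7 CPM in MamBo43, 5.14 and 3.41 CPM in MamBo43 TRT and 1.39 to 2.78 CPM in MamBo38, with no overlap between HER2-negative and HER2-positive libraries (log2 fold change -2.69 ± 0.35, adjusted p = 9.78e-05).

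Perp (ENSMUSG00000019851, chr10:18845020-18857073) was measured at 92.2 CPM in the AG3 library, at 48.7, 48.5 and 42.0 CPM in the other MamBo89 libraries and at 81.9 CPM in MamBo43. MamBo43 TRT, with 72.7 and 45.4 CPM, lay inside that range, whereas MamBo38 held 4.23 to 7.51 CPM. MamBo38 was called lower than MamBo89 (log2 fold change -3.34 ± 0.32, adjusted p = 7.65e-06) and MamBo43 TRT was called higher than MamBo38 (3.37 ± 0.35, adjusted p = 0.000109).

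Taken by line, 9 of the 10 genes were called lower in MamBo38 than in MamBo89, Pkp2 being the exception, where 22.0% of the genes tested were called lower. For the same 9 genes all 4 MamBo38 libraries lay below all 4 of MamBo89, as they did for 30.5% of the genes tested. Against MamBo43, the line from which MamBo38 descends, all 10 were called lower, with a background of 18.5%. MamBo43 TRT was called higher than MamBo38 in 9 of the 10 (background 10.2%), and in 9 both of its libraries lay above all 4 of MamBo38 (background 30.6%). The exception to the call was Pkp2 (0.60 ± 0.30, adjusted p = 0.166) and the exception to the separation was Ppl. The call of Ppl in that comparison depended on the withdrawal library: without it the log2 fold change was -0.23 and no longer called. These comparisons share libraries and are not independent of each other.

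The promoters of Dsp and Jup are shown because both genes lost most of their transcript in MamBo38 while keeping different shares of it in treated MamBo43, and because they are the 2 of the 10 genes with an entry in the RefSeq promoter table used (GRCm38.p6). Dsc2, Dsg2, Evpl, Perp, Pkp1, Pkp2, Pkp3 and Ppl have none there. Each stretch runs on the strand of the gene, from 250 bases before the RefSeq start to 30 bases after it. For Dsp this is chr13:38151044-38151323 on the plus strand and for Jup chr11:100397761-100398040 on the minus strand. Capitals mark the motif CAGGTG, read on both strands, an E-box that repressors of the Zeb and Snail families are known to bind.
Dsp: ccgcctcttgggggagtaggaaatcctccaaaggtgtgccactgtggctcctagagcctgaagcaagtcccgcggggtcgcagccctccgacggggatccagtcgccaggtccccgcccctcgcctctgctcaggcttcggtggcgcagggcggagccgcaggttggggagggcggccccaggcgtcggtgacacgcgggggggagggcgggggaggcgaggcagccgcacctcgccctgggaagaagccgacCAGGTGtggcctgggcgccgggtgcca
Jup: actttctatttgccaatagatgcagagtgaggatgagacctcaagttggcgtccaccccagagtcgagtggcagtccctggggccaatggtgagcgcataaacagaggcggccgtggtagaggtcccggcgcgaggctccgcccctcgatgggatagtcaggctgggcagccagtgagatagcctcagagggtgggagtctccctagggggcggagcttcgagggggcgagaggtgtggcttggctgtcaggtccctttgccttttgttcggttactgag
The motif occurred once in the Dsp stretch, starting at base 4 of the transcript, and not in the Jup stretch. Of 32851 promoter stretches of the same length, 19.1% held it. The motif AACNGGTT, which Grainyhead-like factors are known to bind, was in neither stretch and in 1.95% of all of them. A match is a match of letters only, and its absence says only that these letters are not in this window. The Dsp stretch was richer in G and C (72.9%) than the Jup stretch (60.7%). Dsp itself extends over chr13:38151294-38198577 and Jup over chr11:100368958-100397763 in the GENCODE annotation.

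Of the factors known to bind such motifs, 4 of 6 listed repressors of epithelial genes were called higher in HER2-negative libraries and none lower, where 15.8% of all genes tested were called higher and 17.0% lower. Zeb1 had the largest change (log2 fold change 6.25 ± 0.73, adjusted p = 4.99e-05), from 0.175 to 2.86 CPM in HER2-positive libraries to 47.5 and 54.2 CPM in MamBo43 TRT and 98.4 to 112 CPM in MamBo38. Of 11 listed epithelial transcription factors, 10 were tested, 7 were called lower and 1 higher. Grhl2, a Grainyhead-like factor of epithelial junction genes, fell the most (-4.52 ± 1.46, adjusted p = 0.0227), from 165 ± 8.70 CPM in MamBo89 (SD, n = 4) and 127 CPM in MamBo43 to 30.4 and 10.6 CPM in MamBo43 TRT, with 3 MamBo38 libraries at 0. Klf4, a factor of epithelial differentiation, was the one called higher (1.01 ± 0.44, adjusted p = 0.0761). Its level in HER2-positive MamBo43 (443 CPM) lay inside the range of MamBo38 (275 to 501 CPM), and only MamBo89 was lower (40.8 to 207 CPM). Whether these factors bear on the 10 genes was not tested.

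The next comparison asks what trastuzumab did within a line. In MamBo43, 6 of the 10 genes were called lower in the 2 treated libraries than in the untreated one: Dsg2 (log2 fold change -3.27 ± 0.56, adjusted p = 0.00795), Jup (-2.90 ± 0.39, adjusted p = 0.00171), Pkp3 (-2.24 ± 0.47, adjusted p = 0.0101), Evpl (-1.88 ± 0.45, adjusted p = 0.0163), Dsc2 (-1.69 ± 0.62, adjusted p = 0.0723) and Dsp (-1.05 ± 0.35, adjusted p = 0.0534). Of all genes tested, 15.3% were called lower. Pkp1 (-1.08 ± 0.57), Ppl (-1.28 ± 1.14), Perp (-0.48 ± 0.47) and Pkp2 (-0.42 ± 0.38) were not called, with adjusted p from 0.184 to 0.476. The comparison has 1 untreated library, and its spread is borrowed from the other groups. Without the 60-day library, Dsp and Dsc2 were no longer called (log2 fold change -0.60 and -1.31), and without the withdrawal library Ppl was called lower (-3.57).

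**Figure D3:**
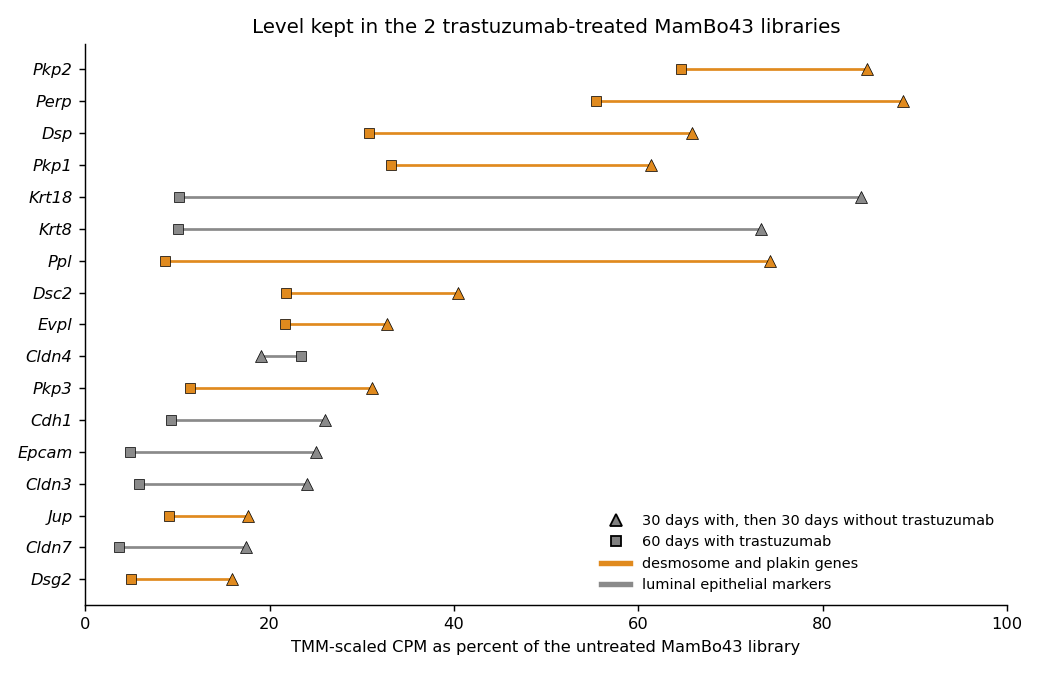
Level of each gene in the 2 treated MamBo43 libraries as a percent of its TMM-scaled CPM in the untreated MamBo43 library; triangles are the library after withdrawal, squares the 60-day library, orange lines the 10 genes and grey lines 7 luminal epithelial markers. All 10 genes lie lower at 60 days, and their mean level kept runs from 10.4% for Dsg2 to 74.7% for Pkp2.

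The level kept after treatment differed between the genes. As a percent of the level in untreated MamBo43, the mean over both treated libraries was 74.7% ± 14.3 for Pkp2 and 72.0% ± 23.5 for Perp (SD, n = 2), 48.3% ± 24.7 for Dsp, 47.3% ± 19.9 for Pkp1, 41.4% ± 46.4 for Ppl, 31.1% ± 13.2 for Dsc2, 27.2% ± 7.78 for Evpl, 21.2% ± 14.0 for Pkp3, 13.4% ± 6.11 for Jup and 10.4% ± 7.75 for Dsg2. Dsg2 kept least in both libraries, 15.9% after withdrawal and 4.94% at 60 days, while Perp kept most in the first (88.7%) and Pkp2 in the second (64.6%). Desmoplakin kept more than plakoglobin in both libraries, 65.8% against 17.7% and 30.8% against 9.07%. Each SD is taken over 2 different schedules and is no replicate error. Among neighbours in this order, Perp over Dsp, Dsc2 over Evpl, Evpl over Pkp3, Pkp3 over Jup and Jup over Dsg2 held in both libraries. The other neighbours changed places between the 2 libraries.

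All 10 genes were lower in the 60-day than in the withdrawal library, by factors from 1.31 for Pkp2 to 8.64 for Ppl. With 1 library of each schedule this difference has no replicate check. Of the 7 luminal markers, 6 moved the same way, and they kept a mean of 10.5% (Cldn7) to 47.2% (Krt18). After withdrawal Krt18 (84.2%) and Krt8 (73.3%) kept more than Dsp (65.8%) and the other 5 markers kept less (17.4% to 26.0%), while at 60 days all 7 markers kept less than Dsp (3.71% to 23.4% against 30.8%). The 60-day library also had the higher sum of myoepithelial markers, 624 against 114 CPM, led by Acta2 (467 against 69.1 CPM) and Krt14 (111 against 9.90 CPM). The share of either in the difference was not tested.

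In MamBo89 and MamBo38, edgeR's test called none of the 10 genes after trastuzumab, and 0% of all genes were called in either direction in each line. No member reached an unadjusted p under 0.05 in either line, against 724 of all genes in MamBo89 and 230 in MamBo38, and DESeq2 called 0 of the 10 as well, with 33 and 1 calls over all genes. In MamBo89 the largest estimates were -1.10 ± 0.53 for Dsc2, -0.67 ± 0.32 for Pkp2 and -0.63 ± 0.39 for Perp, genes that were highest in the AG3 library, which is one of its 2 untreated libraries. With AG3 as the only untreated library, some of the 10 were called lower, and such calls rest on that library alone. For Dsg2, Jup, Pkp3, Dsp and Evpl the estimates in MamBo89 lay between -0.16 and 0.09. In MamBo38, Dsg2, Dsc2 and Dsp had at most 7 counts in a library, so that a fall or a small change in them was not detectable at this depth.

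The difference between lines was tested as an interaction. The trastuzumab effect was more negative in MamBo43 than in MamBo89 for 4 of the 10 genes: Dsg2 (-3.10 ± 0.73 on the log2 scale, adjusted p = 0.0372), Jup (-2.79 ± 0.51, adjusted p = 0.0130), Pkp3 (-2.25 ± 0.62, adjusted p = 0.0441) and Evpl (-1.97 ± 0.59, adjusted p = 0.0556), with 11.2% of all genes called in that direction. It rested on few libraries, and without MamBo89 replicate 4, the 60-day library of that line, only Jup of the 4 was called. Against MamBo38, the effect was more negative in MamBo43 for Jup (-2.73 ± 0.52, adjusted p = 0.0133) and Pkp3 (-2.46 ± 0.65, adjusted p = 0.0415), with a background of 8.63%. Without MamBo38 replicate 1 or 4 only Jup was called, and Dsg2 cannot be compared because MamBo38 has no count of it. Both interactions use the same MamBo43 libraries.

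Levels of different genes can be compared only per length, here as CPM per kilobase of merged exons. In MamBo89 the order was Jup (94.7 ± 6.39, SD, n = 4), Pkp1 (62.2 ± 27.6), Perp (29.6 ± 11.8), Pkp3 (29.1 ± 0.445), Dsp (28.2 ± 1.18), Dsg2 (16.8 ± 1.34), Dsc2 (6.66 ± 4.45), Pkp2 (3.83 ± 1.57), Ppl (2.84 ± 0.253) and Evpl (2.77 ± 0.446). Only Dsp and Dsg2, and Dsg2 and Dsc2, are neighbours whose ranges did not overlap. MamBo43 TRT had Perp at the top (30.2 ± 9.88, n = 2), with both libraries above both of Dsp (10.7 ± 5.48), and every further pair of neighbours overlapped. In MamBo38 the highest were Pkp2 (3.23 ± 0.394, n = 4), Jup (3.06 ± 0.735) and Perp (2.92 ± 0.881), whose ranges overlapped, followed by Pkp3 (1.14 ± 0.249) below all 3. These levels depend on the transcripts assumed, and with the longest transcript in place of merged exons Jup reached 190 per kilobase in MamBo89. By that length the mean of Jup (6.15) passed those of Pkp2 (5.90) and Perp (2.92) in MamBo38. In MamBo43 TRT the mean of Jup (18.9) then passed that of Dsp (10.8).

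The plakophilins differed between lines in proportion as well as in amount. Pkp1 made up 50.9% to 73.9% of the summed level of Pkp1, Pkp2 and Pkp3 per kilobase in the MamBo89 libraries, Pkp3 made up 66.2% in MamBo43, and Pkp2 made up 67.0% to 77.4% in MamBo38. Pkp4 was left out of this sum. In MamBo43 TRT the 3 genes were closest to even, with Pkp2 at 27.5% after withdrawal and 40.3% at 60 days, against 14.5% in untreated MamBo43. With the longest transcript as the length, Pkp2 made up 75.2% to 83.6% in MamBo38 and 37.0% and 51.5% in MamBo43 TRT. The sum itself was 66.7 to 133 CPM per kilobase in MamBo89, 45.0 in MamBo43, 10.5 and 20.1 in MamBo43 TRT and 3.94 to 5.31 in MamBo38. The share of Pkp2 was largest where the other 2 genes were lowest, while its own level per kilobase was 2.42 to 6.08 in MamBo89 and 3.02 to 3.82 in MamBo38.

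**Figure D4:**
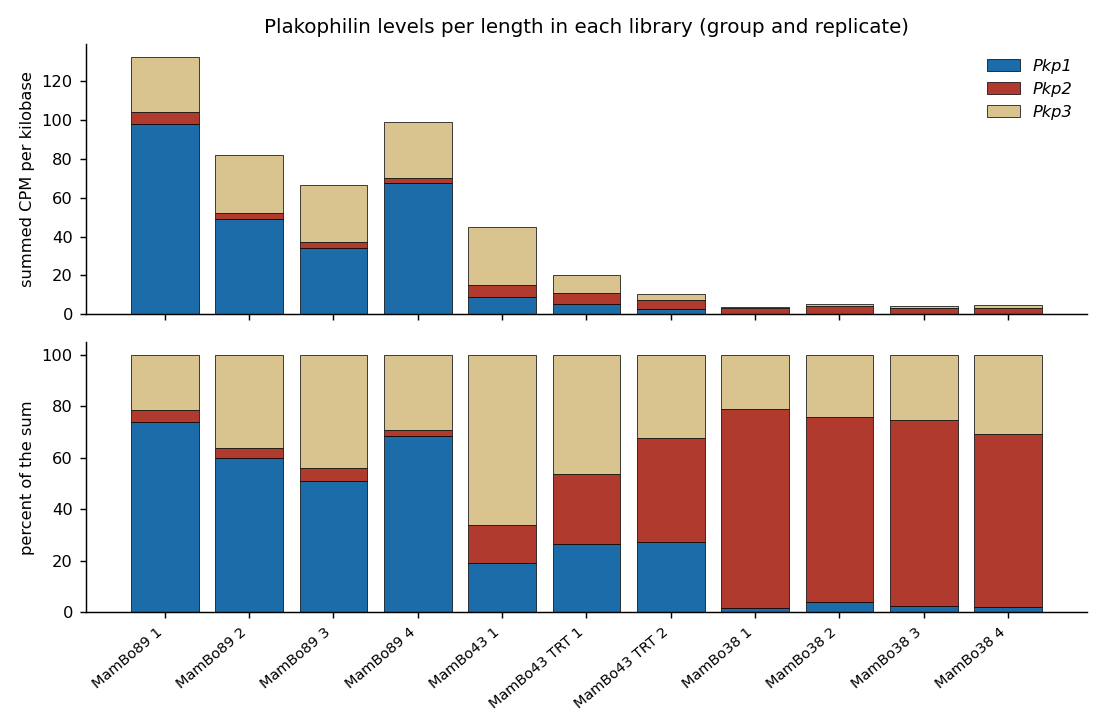
Plakophilin levels in each of the 11 libraries, as stacked CPM per kilobase of merged exons (top) and as percent of their sum (bottom); colours give Pkp1, Pkp2 and Pkp3. Pkp1 is the largest part in the 4 MamBo89 libraries and Pkp2 in the 4 MamBo38 libraries, where the sum is between 3.94 and 5.31.

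Of 10 other listed desmosome genes, the stratified-epithelium cadherins Dsg1a, Dsg1b, Dsg1c, Dsg4, Dsc1 and Dsc3 stayed at or under 0.432 CPM in every library. Dsg3, the desmoglein of basal layers, was present at 1.03 to 2.90 CPM in MamBo89 and at most 0.0759 CPM in the other libraries. In HER2-negative against HER2-positive libraries 3 of the 10 were tested, 1 was called higher and 1 lower. Kazn, which codes for kazrin, a cytoplasmic partner of periplakin, was called lower (log2 fold change -4.04 ± 1.38, adjusted p = 0.0292), with 20.4 to 44.7 CPM in MamBo89, 25.2 CPM in MamBo43, 9.02 and 3.11 CPM in MamBo43 TRT and at most 0.0556 CPM in MamBo38. Pkp4, an armadillo protein found at several kinds of junction, held 58.8 to 97.6 CPM in MamBo38 and 70.4 to 94.3 CPM in MamBo89, and was called lower in treated MamBo43 (-1.12 ± 0.28, adjusted p = 0.0198).

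Cdsn went the other way. It codes for corneodesmosin, an adhesive protein of the desmosomes of cornified layers, and it was measured at 240 to 382 CPM in MamBo38 and at 284 and 343 CPM in MamBo43 TRT, against 1.25 to 2.48 CPM in MamBo89 and 3.76 CPM in MamBo43. Its log2 fold change in HER2-negative libraries was 7.16 ± 0.34 (adjusted p = 3.51e-07), with no overlap between groups, and within MamBo43 it was higher in the treated libraries by 6.38 ± 0.50 on the log2 scale (adjusted p = 0.000278). No exon of another annotated gene overlaps it, and none of its 75-base windows occurs in the transcripts of another gene.

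**Figure D5:**
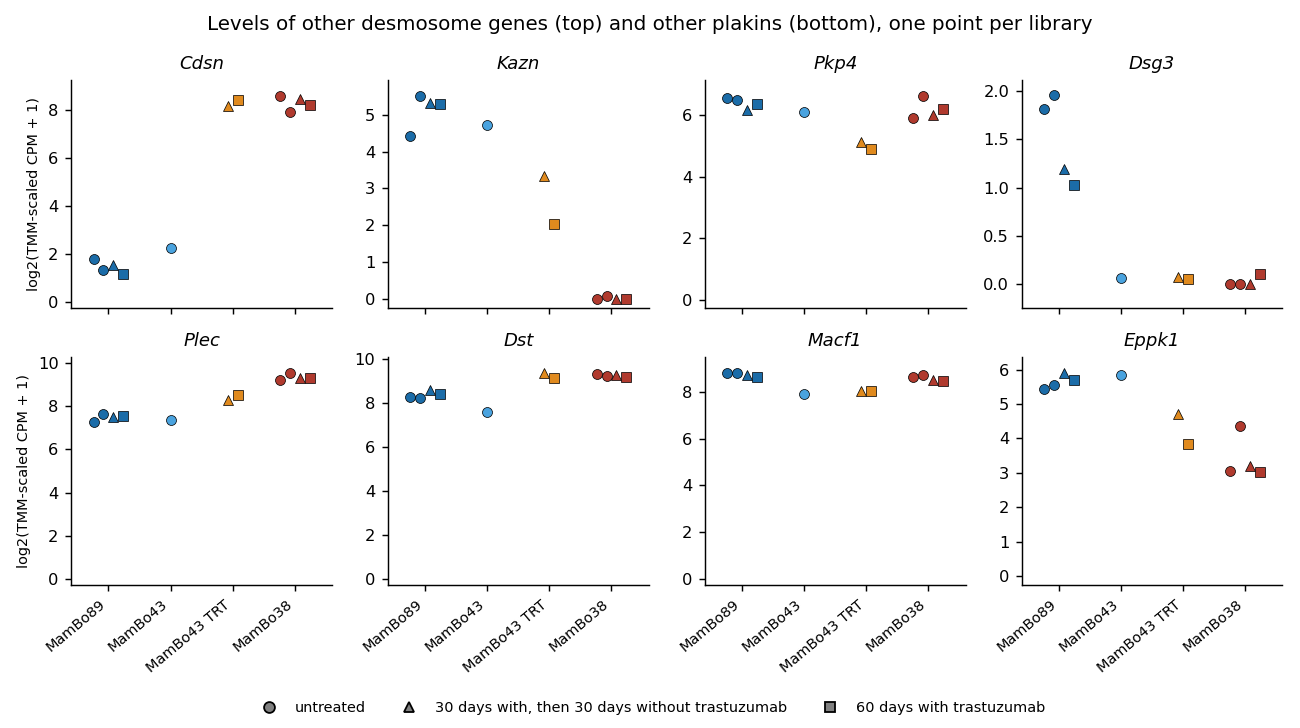
Levels of 4 other desmosome genes (top) and 4 other plakins (bottom) on the scale log2(TMM-scaled CPM + 1), one point per library, with colours for groups and shapes for schedules as in the plot of the 10 genes. Cdsn is high in the 6 HER2-negative libraries and low in the 5 HER2-positive ones, and Kazn shows the reverse order.

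The plakins outside the list of 10 split as well. Plec, plectin, which ties intermediate filaments to hemidesmosomes and other sites, was called higher in HER2-negative libraries (1.61 ± 0.23, adjusted p = 0.000165), at 586 to 729 CPM in MamBo38 and 307 and 358 CPM in MamBo43 TRT against 154 to 198 CPM in HER2-positive libraries. Eppk1, epiplakin, which binds keratins, was called lower (-1.92 ± 0.34, adjusted p = 0.000775). Dst, dystonin, was called higher in treated than in untreated MamBo43 (1.65 ± 0.22, adjusted p = 0.0016), from 193 CPM to 565 and 650 CPM. Macf1, a plakin that links actin and microtubules, was called neither there nor within MamBo43, with a log2 fold change of -0.15 ± 0.10 (adjusted p = 0.218) for MamBo38 against MamBo89.

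Among neighbouring structures in the comparison of HER2-negative with HER2-positive libraries, 2 of 3 tested hemidesmosome genes were called lower, of which Itga6, the integrin alpha6 chain, changed most (-1.78 ± 0.26, adjusted p = 0.000215). Of all genes tested there, 17.0% were called lower and 15.8% higher. Of 7 adherens junction genes 3 were called lower and 1 higher, with E-cadherin (Cdh1, -4.30 ± 1.47, adjusted p = 0.0290) and nectin-2 (Nectin2, 1.31 ± 0.19, adjusted p = 0.000225) at the ends. Of 5 tested keratins only Krt15 was called (-7.06 ± 1.26, adjusted p = 0.000776), and it separated MamBo89 (39.5 to 96.3 CPM) from all other libraries (at most 1.72 CPM), MamBo43 included. In MamBo38 against MamBo89, 6 of 7 tested keratins were called lower, Krt8 (-12.4 ± 0.86) and Krt18 (-10.1 ± 0.80) among them, with a background of 22.0%. Krt7, Krt8 and Krt18 kept 64.4 CPM or more in both MamBo43 TRT libraries, against at most 1.06 CPM in MamBo38. For HER2 status, 1 of 7 cornified envelope genes was tested, Tgm1, a transglutaminase, which was called lower at values of at most 7.90 CPM (-1.76 ± 0.79, adjusted p = 0.0817).

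The genes whose pattern over the 11 libraries was most like that of 4 of the genes were found by Pearson's r of log2(CPM + 1), given as a description because the libraries fall into few lines. For Dsp they were Esrp1 (0.9972), an epithelial splicing regulator, Lamb3 (0.9965), a laminin chain, and Pcsk6 (0.9958), a proprotein convertase. For Jup they were Rassf4 (0.9975), Tmem8b (0.9962) and Erbb3 (0.9955), the last a partner of HER2. For Dsg2 they were Ildr1 (0.9992), a protein of tricellular junctions, Ap1m2 (0.9989), an epithelial adaptor subunit, and Galnt3 (0.9988), a glycosyltransferase. For Perp they were Cobl (0.9892), an actin nucleator, Mtap (0.9858) and Ubxn2a (0.9831). The genes most like Dsg2 had 0 or near-0 values in MamBo38, at most 0.0480 CPM, while those most like Jup kept 1.63 to 6.72 CPM there. The genes were picked over all 11 libraries, MamBo38 included, so this difference largely follows from the choice and is no separate result.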

How the data were processed

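RNA was sequenced from 11 cultures. As the methods state, the authors used the TruSeq RNA kit, sequenced 75-base single-end reads, and counted reads with STAR 2.5 and RSEM 1.3.0; the submitters' notes name mm10. The standard form of that kit does not mark strand, and no strand setting is given in the sources used here. The values deposited by the authors are expected counts per gene, not normalized and all whole numbers, for 21846 genes in 11 columns. HER2 status and treatment follow the labels and the methods, and the MamBo89 library labelled AG3 was taken as the clone by elimination.

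In R 4.3.3 with edgeR 4.0.16, genes were kept by filterByExpr (minimum count 10, minimum total 15), sizes were scaled by TMM, and glmQLFit and glmQLFTest were run in 3 fits on all 11 libraries (HER2 status, group, and line by treatment), with Benjamini-Hochberg adjustment over all genes tested. A standard error is the absolute log2 fold change over the root of F. A fold against a group without counts was computed against 3 counts over that group. Lengths, positions and shared windows come from GENCODE M21, in which all 95 listed genes were found, and promoters from RefSeq. The fits were tested on simulated data with 200 genes changed 8-fold: 89.5% were called for HER2 status among 12255 genes and 62% for the interaction with MamBo89 among 13389.

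The 10 genes and the other lists were chosen with earlier results of these data known. Named beside the 10 were all tested genes of the 2 nearest lists, the called gene with the largest change in each direction in the others, and the 3 genes most like Dsp, Jup, Dsg2 and Perp. DESeq2 1.42.0, other size factors, filters and thresholds, subsets and each library left out were the alternatives.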

Additional observations from a re-analysis of the deposited data

Results flagged for a closer look

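In all, 5 values lay apart from the rest of their group by Dixon's test, among 39 groups tested, where chance flags about 1 in 20 uniform groups. That rate does not strictly apply here, because the groups share libraries and the HER2-negative group joins MamBo38 with MamBo43 TRT. In the 6 HER2-negative libraries, the MamBo43 TRT withdrawal library stood above the others for Dsg2 (28.3 CPM, next 8.78 CPM), Pkp3 (33.6 CPM, next 12.2 CPM) and Ppl (22.2 CPM, next 7.62 CPM). MamBo38 replicate 2 stood above the other 3 MamBo38 libraries for Pkp2, at 20.5 CPM against 16.2 to 16.3 CPM. The AG3 library stood above the other MamBo89 libraries for Perp, at 92.2 CPM against 42.0 to 48.7 CPM. Perp was called lower in MamBo38 with and without AG3.

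The trastuzumab effect differed between lines by the interaction test for 4 genes against MamBo89, at -3.10 for Dsg2, -2.79 for Jup, -2.25 for Pkp3 and -1.97 for Evpl on the log2 scale, and for 2 genes against MamBo38, at -2.73 for Jup and -2.46 for Pkp3. The 2 treated MamBo43 libraries lay below the untreated one for each of these genes.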

How the results depend on the processing

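The numbers of genes called among the 10 were checked under 209 combinations of comparison and alternative, and 195 stayed within 1.5 times the reported number. A minimum of 10 counts in every library left 6 of the 10 genes to test, since Dsg2, Dsc2, Dsp and Pkp1 have fewer in MamBo38, and it gave 5 calls for MamBo38 against MamBo89, 0 for MamBo43 against MamBo89, 6 for MamBo38 against MamBo43, 5 for MamBo43 TRT against MamBo38 and 3 for trastuzumab in MamBo43. Testing against a log2 fold change of 1 (glmTreat) gave 3 calls for trastuzumab in MamBo43 and 1 in each interaction. Without both the AG3 library and MamBo38 replicate 2, an alternative chosen after seeing the data, 3 genes were called for MamBo43 against MamBo89. Leaving out 1 library at a time gave 5 to 9 calls for HER2 status (9 without the withdrawal library of MamBo43 TRT), 1 to 3 for MamBo43 against MamBo89 (3 without AG3), 0 to 2 for trastuzumab in MamBo89 (2 without MamBo89 replicate 2), and 1 to 5 and 1 to 3 for the interactions with MamBo89 and MamBo38. The log2 fold change of Ppl in MamBo43 TRT against MamBo38 ranged from -0.23 to 2.98 when 1 library was left out, and that of Pkp2 in MamBo38 against MamBo89 from -0.42 to 0.0779. Pkp2 also changed sign over the 8 libraries with the shared code (0.0599 for HER2 status) and without the other 3 MamBo38 libraries (0.00034 against MamBo89). The cause was not tested. For HER2 status, tumor of origin as a covariate gave 4 calls, without Pkp1 and Ppl (log2 fold change -2.59 and -2.28, against -5.15 and -1.82). DESeq2 gave 4 calls (Jup, Pkp1, Evpl and Perp), and it gave no adjusted p for Dsg2, Pkp3, Dsp and Ppl. Of the alternatives for single genes, 4 of 1375 reversed the sign. Scaling by other size factors or plain CPM moved no percent kept beyond its SD. No paired analysis was run: the labels give no replicate numbers, and libraries of different lines can be matched only by schedule or name code. The folds of Dsg2, Dsc2 and Dsp over MamBo38 with 1 library left out were added after seeing the data. The limits are the number of libraries, 1 of untreated MamBo43 and 1 of each treatment schedule per line, and for Dsg2, Dsc2 and Dsp in MamBo38 also the depth.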
